A study of Mus musculus with 2 samples.

Results

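The interferon-inducible GTPases described here are 8 genes of the guanylate-binding protein (GBP) and immunity-related GTPase (IRG) families, taken by symbol from a fixed list of names: Gbp2, Gbp3, Gbp4, Gbp6, Gbp7, Igtp, Irgm1 and Iigp1. All 8 were present among the 27933 distinct gene symbols of the count tables. They were followed across 3 classes of stromal cells in 2 single-cell libraries of mouse mandibular lymph nodes, the nodes that drain the head. One library came from mice with SAH (subarachnoid haemorrhage, modelled by infusing the animal's own blood) and the other from mice given a sham operation. Nodes of 20 mice were pooled for each at 24 h, and cells were loaded after magnetic removal of CD45-bearing leukocytes and enrichment with antibodies against CD31 and podoplanin. Strain, sex and age were not given in the sources used here. With 1 pooled library per group there is no replicate of either operation, so no test was made, no p-value is given, and every interval below covers counting error only, not the spread between mice.

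GBPs and IRG proteins are large GTP-hydrolysing enzymes that interferon gamma induces in almost any nucleated mouse cell. They gather on membranes that enclose bacteria or protozoa, break them and pass the contents to autophagy and to inflammasomes. Interferon gamma signals through its receptor chains Ifngr1 and Ifngr2 and the kinases Jak1 and Jak2, which leads to binding at the GAS motif and to induction of Irf1, a factor that binds the related ISRE. Type I interferons also act through the ISRE, so these GTPase genes can answer to either kind of interferon. In lymph nodes, lymphatic endothelial cells (LEC) line the sinuses, blood endothelial cells (BEC) line capillaries and high endothelial venules, and fibroblastic reticular cells build the scaffold on which lymphocytes move.

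The genes lie in clusters. On the GRCm38 build, Gbp7 (chr3:142530342-142550149), Gbp3 (chr3:142560026-142573209) and Gbp2 (chr3:142620602-142638008) stand side by side on the plus strand of chromosome 3. Gbp4 (chr5:105115767-105139586) and Gbp6 (chr5:105270702-105293698) lie on the minus strand of chromosome 5. Irgm1 (chr11:48861968-48871683, minus strand) and Igtp (chr11:58199556-58207591, plus strand) lie on chromosome 11. Promoter entries from RefSeq, on GRCm38.p6, were matched for 5 of the 8 genes, in 6 windows because Gbp3 has 2 starts. For Gbp4, Gbp6 and Iigp1 no window was searched, which does not show that RefSeq lacks an entry for them.

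The 250 bases before each RefSeq start were searched on both strands for GAS, spelled TTCNNNGAA, and for the ISRE core, which is GAAA, any 2 bases and GAAA again, and reads TTTC, 2 bases and TTTC on the other strand. Of the 32851 promoter windows searched, 7.02% held GAS, 2.98% the ISRE core and 0.332% both. The ISRE core was found in 5 of the 6 windows of these genes and GAS in 2, while the other Gbp3 window held neither. The stretches below show where the letters fall, since the genes are set beside 2 kinds of interferon-responsive genes further on. Each is written 5′ to 3′ on the gene's own strand, with matches in capitals. In the chromosome 3 genes the ISRE core lies on the opposite strand and appears as TTTC, 2 bases and TTTC. In Gbp3 and Irgm1 a pair of matches overlap.
Gbp2 (chr3:142620594-142620623, plus strand): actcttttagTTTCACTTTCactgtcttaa
Gbp3 (chr3:142559906-142560025, plus strand): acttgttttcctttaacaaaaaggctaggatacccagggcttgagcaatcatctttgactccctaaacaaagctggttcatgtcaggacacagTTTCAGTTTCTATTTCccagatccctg
Gbp7 (chr3:142530216-142530335, plus strand): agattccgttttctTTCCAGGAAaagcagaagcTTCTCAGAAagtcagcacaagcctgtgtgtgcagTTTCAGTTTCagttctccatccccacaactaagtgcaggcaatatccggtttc
Irgm1 (chr11:48871428-48871457, minus strand): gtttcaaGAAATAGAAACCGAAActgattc
Igtp (chr11:58199436-58199555, plus strand): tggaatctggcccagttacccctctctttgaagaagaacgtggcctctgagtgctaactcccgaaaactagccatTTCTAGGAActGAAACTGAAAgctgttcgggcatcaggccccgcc

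In Igtp the GAS match ends 2 bases before the ISRE core begins. That spacing and order occurred in 5 of the 32851 windows (0.0152%), which belonged to Igtp, to its relatives Irgm2, Tgtp1 and Tgtp2, and to Gm12185, and the 3 relatives are shown for comparison.
Irgm2 (chr11:58214898-58214927, plus strand): ccatTTCCAGGAActGAAACTGAAAgctgt
Tgtp1 (chr11:48992309-48992338, minus strand): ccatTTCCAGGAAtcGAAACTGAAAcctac
Tgtp2 (chr11:49064268-49064297, minus strand): ccatTTCCAGGAAtcGAAACCGAAAcctac
The Gbp2 stretch lies partly, and the Irgm1 stretch wholly, inside the gene bounds given above, which reach further upstream than the RefSeq start. The Irgm2 and Tgtp1 stretches also lie wholly inside their gene bounds (chr11:58199618-58222782 and chr11:48985327-48994172). Irgm2, Tgtp1 and Tgtp2 are close copies of Igtp or of each other, and Gm12185 overlaps Tgtp1 on the same strand. The windows are therefore not independent. A match is a description of letters and does not show that a factor binds there. Of the 10 other family windows, 5 held the ISRE core and 4 held GAS.

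After filtering, 11454 of 13766 barcodes from SAH and 11157 of 13952 from sham were kept, with a median of 5747 and 5039 UMIs (unique molecular identifiers, 1 per tagged molecule) and a median mitochondrial share of 3.84% and 4.71%. Cells were classed by marker UMIs: LEC by at least 1 Prox1, BEC by Pecam1 with Ly6c1 or Flt1 and no Prox1, and fibroblastic stroma by at least 3 UMIs of Dcn and Col3a1 with neither Prox1 nor Pecam1. LEC numbered 2562 in SAH and 2364 in sham, BEC 6480 and 6329, and fibroblastic stroma 1631 and 1532. Although the samples are labelled lymphatic endothelial cells, the Prox1-bearing cells made up 22.4% of kept SAH cells and 21.2% of kept sham cells. The classes held 22714477 and 18567746 UMIs in SAH and sham LEC, 37038729 and 36519648 in SAH and sham BEC, and 10764781 and 7936552 in SAH and sham fibroblastic stroma. Of barcodes, 49 kept ones occurred in both libraries.

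The LEC class was not clean. Among LEC, 906 SAH and 550 sham cells also carried at least 2 UMIs of Ly6c1 and Flt1, 734 and 431 carried at least 3 of Dcn and Col3a1, and Scrublet called 15.7% and 13.0% doublets. In BEC, 903 SAH and 476 sham cells carried the Dcn and Col3a1 UMIs. The counts and ratios of the 8 genes were therefore also computed for exclusive classes. These leave out the LEC and BEC counted above by marker UMIs and, in BEC and stroma, cells with UMIs of Cd79a, Cd3e or Lyz2. In stroma 314 SAH and 159 sham cells carried at least 2 UMIs of Ly6c1 and Flt1 and were not left out for it. The exclusive classes hold 1185 SAH and 1469 sham LEC, 5447 and 5686 BEC, and 1606 and 1512 stromal cells. Of the 7 LEC markers that the class rule did not use, 6 were higher in LEC than in BEC and stroma in both libraries. Lyve1 stood at 987 CPM (a gene's UMIs scaled to 1000000 UMIs of the class) in SAH and 572 CPM in sham LEC, against 16.1 and 8.57 CPM in fibroblastic stroma. Pdpn was nearer, at 87.0 CPM in SAH and 78.5 CPM in sham LEC against 70.1 and 57.2 CPM in stroma. The exception was Ccl21a, a chemokine that fibroblastic reticular cells also make, at 1657 CPM in SAH and 941 CPM in sham LEC against 15736 and 10532 CPM in stroma. In the exclusive LEC, Emcn, a blood endothelial gene, stood at 76.6 CPM in SAH and 51.5 CPM in sham, against 203 and 183 CPM in the LEC class as a whole. Of the BEC markers that the class rule did not use, Emcn, Cdh5, Plvap, Ptprb and Cd34 were higher in BEC than in LEC in both libraries. Kdr and Cldn5 were not. Kdr stood at 820 CPM in SAH and 743 CPM in sham LEC against 656 and 719 CPM in BEC, and Cldn5 at 1422 and 1258 CPM against 194 and 190 CPM. The stroma differed between libraries in its own markers. Of 8 fibroblast markers, including Dcn and Col3a1, 3 were at least 1.5-fold lower in SAH stroma and 1 was higher at all. The 3 were Col1a1 (ratio 0.485), Lum (0.535) and Col3a1 (0.537), beside 10.2% of genes with at least 20 UMIs. The part of this shift in the stromal ratios was not tested.

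All 8 genes were higher in the SAH library than in the sham library in all 3 classes. In LEC 8 of 8 were at least 1.5-fold higher, beside 9.14% of the 13451 genes with at least 20 UMIs in that class. In BEC the count was 6 of 8, beside 12.4% of 14018 genes. Both counts include Gbp6, which was found in a smaller share of cells than Pdgfra, a fibroblast gene, in either class. The LEC count includes Gbp3 and Gbp4, which in sham LEC exceeded the share of 1 of 2 fibroblast genes. In fibroblastic stroma the count was 8 of 8, beside 8.49% of 12478 genes. There 3 of them (Gbp3, Gbp4 and Gbp6) did not exceed the share of Emcn, a blood endothelial gene, in at least 1 library. This comparison of shares cannot tell a low level from RNA shared between droplets. In LEC and BEC the shares also include the cells with Dcn and Col3a1 UMIs counted above. The values are given below. None was at least 1.5-fold lower in any class, against backgrounds of 6.34%, 5.74% and 10.2% of genes. Summed, the 8 genes stood at 1159 CPM in SAH and 691 CPM in sham LEC (1.68-fold, 95% interval 1.64 to 1.71), at 1163 and 744 CPM in BEC (1.56-fold, 1.54 to 1.59), and at 609 and 363 CPM in fibroblastic stroma (1.68-fold, 1.61 to 1.76). The median log2 ratio over the 8 was 0.81 in LEC, 0.73 in BEC and 0.81 in fibroblastic stroma, where all measured genes had medians of 0.01, 0.03 and -0.06. In the exclusive classes the counts at least 1.5-fold higher were again 8, 6 and 8. The ratios ran from 1.64 to 3.10 in LEC, from 1.40 to 3.52 in BEC and from 1.51 to 3.04 in stroma. Stromal cells with UMIs of the endothelial genes Ly6c1 and Flt1 remained in the last. Summed levels and shares of cells were computed for the classes as a whole.

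**Figure D1:**
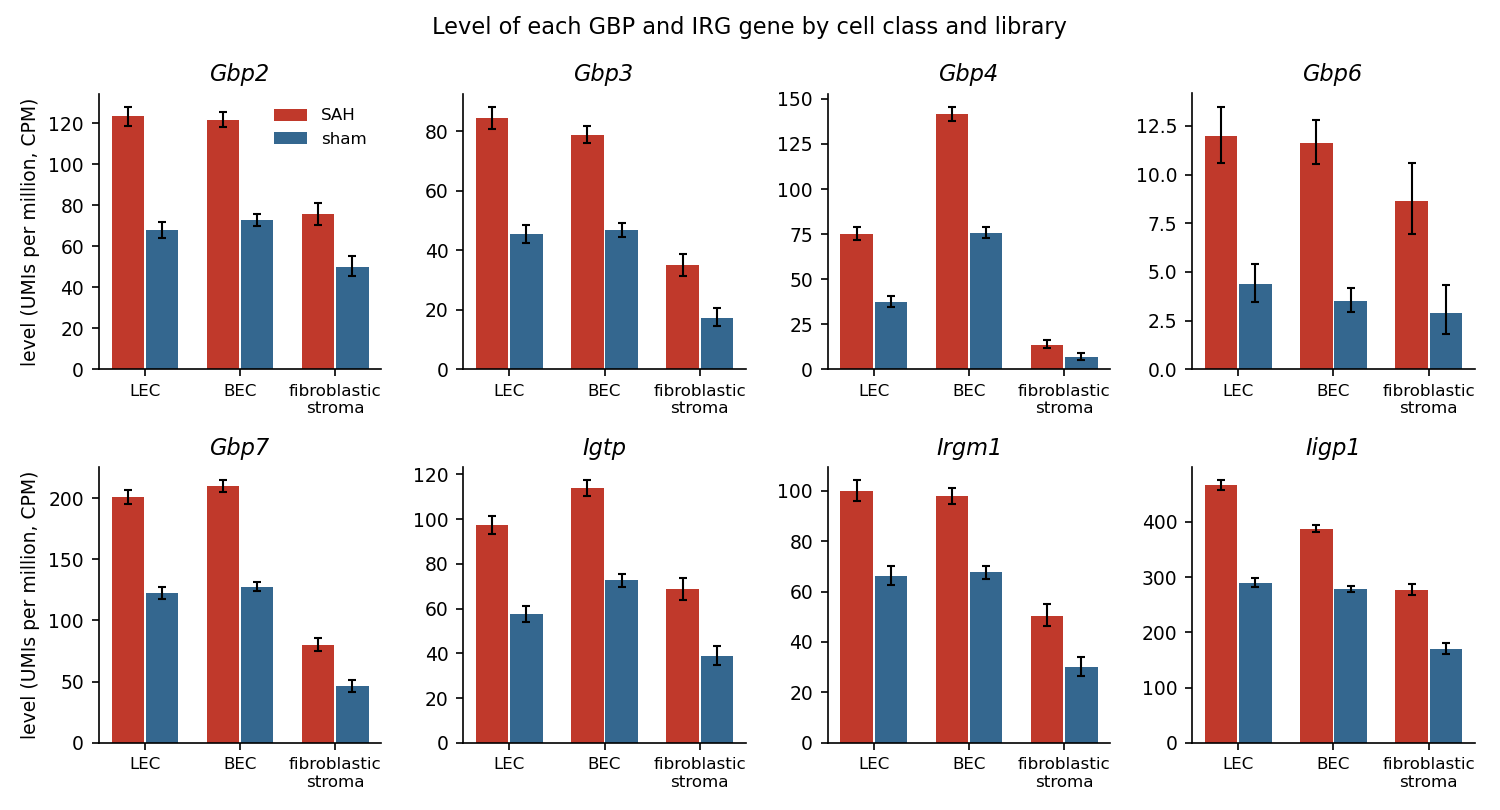
Level of each gene in CPM by cell class, with the SAH library left of the sham library; bars are the class sums and whiskers exact Poisson 95% intervals, which cover counting error only. In every panel and class the SAH bar is higher, and Gbp4 in fibroblastic stroma is the lowest class value relative to its highest, 13.7 against 142 CPM in SAH.

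Of the chromosome 3 genes, Gbp2 encodes a prenylated GBP that helps to control Toxoplasma in mice. Gbp2 stood at 123 CPM in SAH and 67.9 CPM in sham LEC (1.82-fold, 95% interval 1.70 to 1.94), and at 122 CPM in SAH and 72.8 CPM in sham BEC (1.67-fold, 1.59 to 1.75). In fibroblastic stroma it stood at 75.4 CPM in SAH and 50.02 CPM in sham (1.51-fold, 1.34 to 1.71). Both endothelial classes had nearly the same Gbp2 level within a library and the stroma lay below them. The stromal ratio sat at the 1.5-fold line, and fell below it, at 0.55 on the log2 scale, without the 10 cells richest in Gbp2 in each library.

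Gbp3, its neighbour, stood at 84.5 CPM in SAH and 45.5 CPM in sham LEC (1.86-fold, 1.71 to 2.02), and at 78.9 and 46.8 CPM in BEC (1.69-fold, 1.59 to 1.79). In fibroblastic stroma Gbp3 stood at 34.9 CPM in SAH and 17.4 CPM in sham (2.01-fold, 1.65 to 2.46), from 376 and 138 UMIs. The SAH and sham intervals of the level lay apart in all 3 classes for every gene of the 8.

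Gbp7, which in mouse macrophages helps to assemble the NADPH oxidase on pathogen vacuoles, had the highest level of the 5 GBP genes in LEC and BEC of both libraries and in SAH stroma, while in sham stroma Gbp2 was higher, at 50.02 against 46.1 CPM. Counts of 5′-tagged molecules do not depend on transcript length, although capture can differ between genes. Gbp7 stood at 201 CPM in SAH and 123 CPM in sham LEC (1.64-fold, 1.56 to 1.72), at 210.1 and 127 CPM in BEC (1.65-fold, 1.59 to 1.71), and at 80.1 and 46.1 CPM in fibroblastic stroma (1.74-fold, 1.54 to 1.97). The Gbp7 ratio was the most even over the classes, with 3 overlapping intervals.

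Of the chromosome 5 genes, Gbp4, which in mouse cells has been described as a brake on Irf7, was the most endothelial. It stood at 141.8 CPM in SAH and 75.9 CPM in sham BEC (1.87-fold, 1.79 to 1.96), at 75.1 and 37.5 CPM in LEC (2.00-fold, 1.83 to 2.19), and at 13.7 and 6.93 CPM in fibroblastic stroma (1.97-fold, 1.44 to 2.74). The order BEC, LEC, stroma held in both libraries with all intervals apart, and BEC exceeded stroma 10.4-fold in SAH and 10.9-fold in sham. The LEC level depended on the cells counted: in exclusive LEC Gbp4 stood at 62.3 CPM in SAH and 25.9 CPM in sham (2.41-fold, 2.07 to 2.80).

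Gbp6 had the lowest level and the largest ratio of the 8 in every class. It stood at 12.0 CPM in SAH and 4.36 CPM in sham LEC (272 and 81 UMIs, 2.74-fold, 2.13 to 3.56), at 11.6 and 3.53 CPM in BEC (431 and 129 UMIs, 3.29-fold, 2.70 to 4.04), and at 8.64 and 2.90 CPM in fibroblastic stroma (93 and 23 UMIs, 2.98-fold, 1.87 to 4.93). The stromal log2 ratio of 1.58 became 2.20 without the 10 cells richest in Gbp6 in each library and 1.02 in thinned cells. In all 3 classes Gbp6 was found in a smaller share of cells than a marker of another class, as given below. A gene of low level can fall below such a marker whatever its source. It was also the gene with no class order, since neighbouring classes overlapped in both libraries. Its value is the least certain by identity. Of the 50-base stretches of its transcripts, 70.7% also occur in other genes, mainly an overlapping model on the same strand that the files also call Gbp6 and that had 0 UMIs, and Gbp10, which shares 84.1% of its own. How the counting split such reads is not given in the sources used here.

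The IRG genes Igtp (Irgm3) and Irgm1 encode regulators that sit on the cell's own membranes and keep the effector IRG proteins inactive there. Igtp stood at 97.3 CPM in SAH and 57.5 CPM in sham LEC (1.69-fold, 1.57 to 1.82), at 113.9 and 72.6 CPM in BEC (1.57-fold, 1.495 to 1.65), and at 68.7 and 38.8 CPM in fibroblastic stroma (1.77-fold, 1.55 to 2.03). BEC exceeded LEC in both libraries with intervals apart. Irgm1 stood at 99.98 CPM in SAH and 66.2 CPM in sham LEC (1.51-fold, 1.41 to 1.62), at 97.8 and 67.6 CPM in BEC (1.45-fold, 1.38 to 1.52), and at 50.4 and 29.99 CPM in fibroblastic stroma (1.68-fold, 1.44 to 1.97). Irgm1 was level between both endothelia and had the smallest ratio of the 8 in LEC, and in BEC it stayed under the 1.5-fold line.

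Iigp1 (Irga6), an effector on chromosome 18 that coats the vacuole of Toxoplasma, supplied the most UMIs. It stood at 466 CPM in SAH and 289.7 CPM in sham LEC (1.61-fold, 1.56 to 1.66), at 387 and 278 CPM in BEC (1.40-fold, 1.36 to 1.43), and at 277 and 170.4 CPM in fibroblastic stroma (1.63-fold, 1.52 to 1.74). The LEC and BEC levels overlapped in sham and lay apart in SAH, with LEC higher. Iigp1 had the smallest ratio of the 8 in BEC, and its BEC interval did not reach those of LEC and stroma, a difference between classes that was not tested. In exclusive LEC it stood at 505.5 CPM in SAH and 266 CPM in sham, a ratio of 1.90 (1.81 to 1.99), and in exclusive BEC at 407 and 291 CPM, a ratio of 1.40 (1.36 to 1.44).

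The mix of the 8 genes varied with the class. Iigp1 gave 40.2% of their UMIs in SAH and 41.9% in sham LEC, 33.3% and 37.3% in BEC, and 45.5% and 47.0% in fibroblastic stroma. Gbp4 gave 12.2% in SAH and 10.2% in sham BEC, against 2.24% and 1.91% in fibroblastic stroma. Gbp6 was the only one whose share was above 1.5 times the sham share in all 3 classes, at 1.03% in SAH against 0.631% in sham LEC, 1.00% against 0.475% in BEC, and 1.42% against 0.799% in fibroblastic stroma.

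Transcripts of a gene that belongs to another class give a measure of RNA shared between droplets. Mmrn1, a LEC gene, appeared in fibroblastic stroma at 1.51% of its LEC level in SAH and 0.836% in sham, and Emcn, a BEC gene, at 2.52% and 1.94% of its BEC level. Fibroblast genes reached further: Col1a2 appeared in BEC at 12.6% of its stromal level in SAH and 6.03% in sham. That value includes the BEC with Dcn and Col3a1 UMIs counted above, so it is not a measure of shared RNA alone. In exclusive BEC Col1a2 stood at 22.65 CPM in SAH and 10.94 CPM in sham, against 194 and 108 CPM in BEC as a whole. Gbp4, the gene of the 8 with the widest gap between classes, had 13.7 CPM in SAH and 6.93 CPM in sham stroma, against 141.8 and 75.9 CPM in BEC.

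By share of cells at 2000 UMIs each, Emcn was found in 4.46% of SAH and 4.14% of sham stromal cells and Mmrn1 in 3.36% and 1.26%. Gbp4, at 2.33% and 1.26%, and Gbp6, at 1.36% and 0.702%, did not exceed Emcn there, and Gbp3, at 6.40% and 3.58%, exceeded it only in SAH. In the stroma these 3 genes did not exceed Emcn by share in at least 1 library, and the other 5 of the 8 did in both. Emcn stood at 797 CPM in SAH and 1026 CPM in sham BEC, so a gene of low level can stay below its share whatever its source. By level, Gbp6 had 8.64 CPM in SAH and 2.90 CPM in sham stroma, against 12.0 and 4.36 CPM in LEC. Gbp3 had 34.9 and 17.4 CPM, against 84.5 and 45.5 CPM in LEC. The part of shared RNA in these stromal UMIs was not tested. In LEC and BEC, Pdgfra, a fibroblast gene, was found in 3.47% of SAH and 2.41% of sham LEC and in 4.25% and 2.22% of BEC. Gbp6 did not exceed it, at 2.31% of SAH and 0.688% of sham LEC and 2.19% and 0.814% of BEC, while the other 7 genes did. Col1a2, a more abundant fibroblast gene, was found in 10.9% of SAH and 7.62% of sham LEC and in 12.5% and 7.53% of BEC. These Pdgfra and Col1a2 shares include the LEC and BEC that carried at least 3 UMIs of Dcn and Col3a1. Gbp3, at 7.40%, and Gbp4, at 6.58%, also did not exceed Col1a2 in sham LEC, while both did in SAH LEC, at 13.4% and 12.4%, and in BEC. In stroma Pdgfra stood at 295 CPM in SAH and 297 CPM in sham, and Col1a2 at 1540 and 1794 CPM. A gene of low level can therefore stay below their shares whatever its source.

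The higher level was seen as more cells with a UMI. After each cell was thinned to 2000 UMIs, Iigp1 was found in 47.2% of SAH and 32.4% of sham LEC (exact 95% intervals 45.3 to 49.2 and 30.5 to 34.4), in 41.6% and 34.5% of BEC, and in 30.4% and 18.7% of fibroblastic stroma. Gbp7 was found in 29.2% of SAH and 19.8% of sham LEC, in 30.3% and 22.6% of BEC, and in 13.6% and 8.70% of fibroblastic stroma. Gbp4 was found in 22.0% of SAH and 14.6% of sham BEC, and in 2.33% and 1.26% of fibroblastic stroma. The SAH share was higher for every gene in every class. Unthinned, Iigp1 was in 79.9% of SAH and 61.0% of sham LEC, whose median depth also differed, at 8193 and 6872 UMIs.

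The UMIs of most genes were spread over many cells. The 10 cells richest in Gbp7 held 4.04% of its LEC UMIs in SAH and 5.31% in sham. Concentration was greatest where counts were low: for Gbp6 in fibroblastic stroma the top 10 cells held 25.8% in SAH and 52.2% in sham, and for Gbp4 there 21.1% and 38.2%.

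Cells with several of the 8 genes were also more frequent in SAH. At 2000 UMIs per cell, 76.3% of SAH and 61.0% of sham LEC had a UMI of at least 1 of them, and 20.5% and 8.91% had at least 3 different ones. For BEC these shares were 75.6% and 65.7% for at least 1, and 23.1% and 13.1% for at least 3. For fibroblastic stroma they were 53.4% and 38.6% for at least 1, and 7.37% and 2.81% for at least 3. The intervals of SAH and sham lay apart in each of these pairs.

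**Figure D2:**
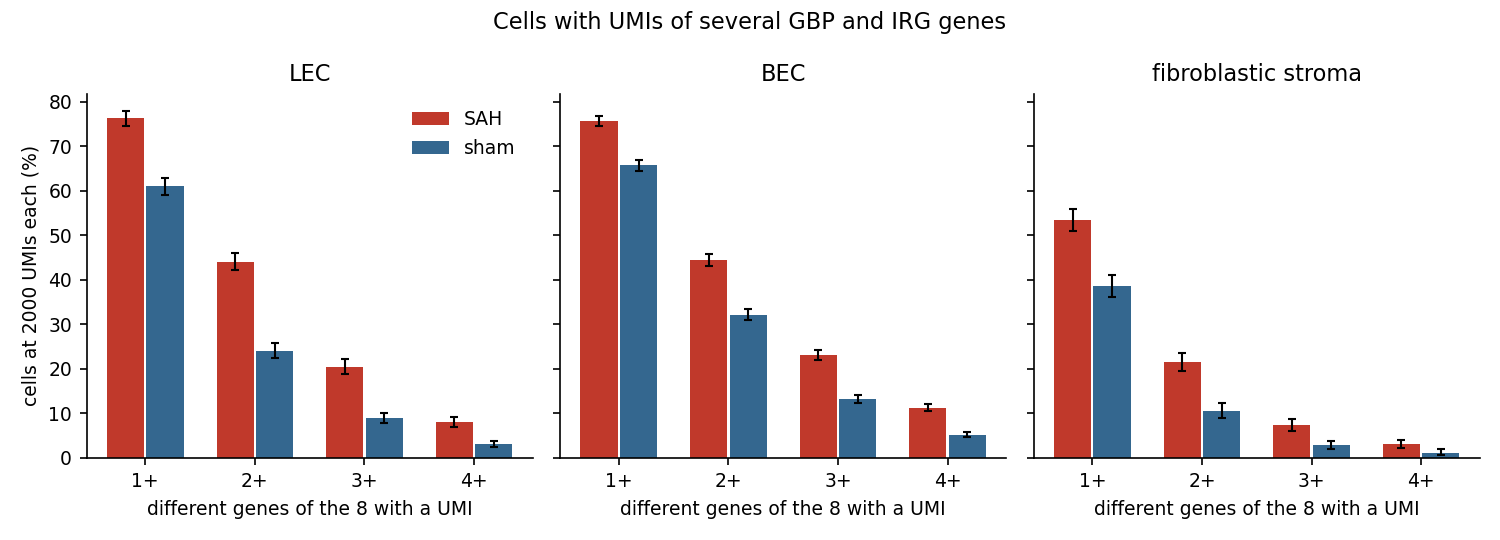
Percentage of cells, each thinned to 2000 UMIs, with a UMI of at least 1, 2, 3 or 4 different genes of the 8, SAH left of sham, with exact 95% intervals as whiskers. SAH is higher at each step, for example 20.5% against 8.91% of LEC at 3 or more genes.

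GBP and IRG transcripts tended to occur in the same cells. Among SAH LEC with a GBP UMI, 68.3% also had an IRG UMI, against 50.3% of those without one, and in sham LEC the shares were 50.4% and 38.7%. In BEC they were 62.3% and 44.6% in SAH, and 54.7% and 39.2% in sham. In fibroblastic stroma they were 53.6% and 34.4% in SAH, and 34.8% and 22.9% in sham. The cells of a class share 1 library, so these shares describe the libraries.

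Irf7, an amplifier of type I interferon responses, had the highest ratio of the antiviral genes in LEC and was therefore used, after its values had been seen, to divide the thinned cells. In LEC the 8 genes together averaged 2.93 UMIs per cell in SAH cells with an Irf7 UMI and 1.80 in SAH cells without, and 2.42 and 1.17 in sham cells. In BEC the averages were 2.97 and 1.85 in SAH, and 2.34 and 1.46 in sham. In fibroblastic stroma they were 1.70 and 1.12 in SAH, and 1.82 and 0.709 in sham, where 40 cells carried Irf7. Cells without an Irf7 UMI also had more of the 8 genes in the SAH library than in the sham library, in all 3 classes. After thinning, 1150 SAH LEC had an Irf7 UMI and 1359 had none. A thinned cell without an Irf7 UMI can still hold Irf7 RNA, so the split does not separate cells with Irf7 from cells lacking it. Whether the difference in the 8 genes depends on Irf7 was not tested.

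Marker genes divided the classes further, by at least 1 UMI of 1 gene. A cell can pass more than 1 such gate, and passing depends on depth. In LEC, Ackr4 marks the ceiling of the subcapsular sinus, Madcam1 its floor and Marco the medullary sinus. The 8 genes together stood at 1137 CPM in SAH and 631 CPM in sham Ackr4-positive LEC (1.80-fold, 1.75 to 1.86), from 1232 and 1210 cells. Marco-positive LEC had 1409 CPM in SAH and 751 CPM in sham (1.88-fold, 1.76 to 2.00), from 472 and 177 cells. Madcam1-positive LEC had 927 CPM in SAH and 722.5 CPM in sham (1.28-fold, 1.23 to 1.34), from 587 and 524 cells.

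The Madcam1-positive cells had the smallest ratio of the LEC gates. There Iigp1 stood at 394 CPM in SAH and 340.5 CPM in sham (1.16-fold, 1.09 to 1.23) and Gbp2 at 78.5 and 63.0 CPM (1.25-fold, 1.08 to 1.44), while Gbp4 stood at 49.5 and 29.8 CPM (1.66-fold, 1.36 to 2.03). The sham level of Iigp1 in them was above that of the Ackr4-positive cells, which had 454 CPM in SAH and 248 CPM in sham (1.83-fold, 1.75 to 1.92). Gbp4 in Marco-positive LEC stood at 92.7 CPM in SAH and 28.0 CPM in sham (3.31-fold, 2.39 to 4.67). The number of Marco-positive cells itself differed between libraries, and its part in these values was not tested. Nor was the difference between gates.

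In BEC, Chst4 marks high endothelial venules, Gja5 arteries and Kit a set of capillary cells. The 8 genes together stood at 1308 CPM in SAH and 753 CPM in sham Kit-positive BEC (1.74-fold, 1.69 to 1.78). Chst4-positive BEC had 907 CPM in SAH and 535 CPM in sham (1.70-fold, 1.62 to 1.77), and Gja5-positive BEC had 992 CPM in SAH and 765 CPM in sham (1.30-fold, 1.17 to 1.43), from 132 and 245 cells. The level was thus lowest in the Chst4-positive cells and the ratio lowest in the Gja5-positive ones. In fibroblastic stroma, Ccl19-positive cells had 610.3 CPM in SAH and 368 CPM in sham (1.66-fold, 1.58 to 1.74), Tnfsf11-positive cells 520.3 and 270.0 CPM (1.93-fold, 1.74 to 2.14), and Pi16-positive cells 363 and 251 CPM (1.45-fold, 1.09 to 1.93). The Pi16 gate held 60 SAH and 73 sham cells and was the single gate in which a gene of the 8 was lower in SAH: Gbp7 had 10 UMIs in SAH and 16 in sham, 30.3 and 44.5 CPM, with an interval of the ratio from 0.276 to 1.59.

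**Figure D3:**
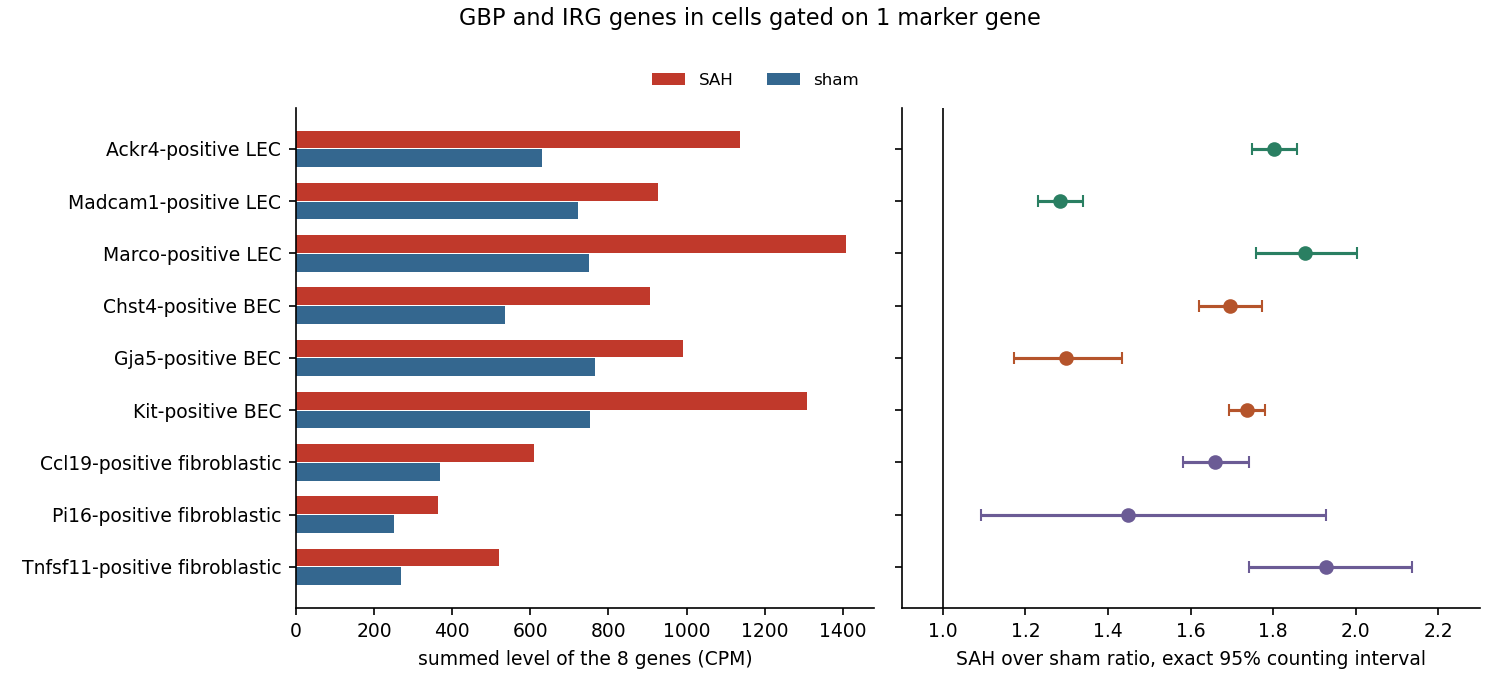
Left, summed level of the 8 genes in CPM in cells gated on 1 marker gene, SAH above sham; right, the SAH over sham ratio with its exact 95% counting interval, coloured by class (green LEC, orange BEC, purple fibroblastic stroma). The ratios of the Madcam1-positive LEC (1.28) and Gja5-positive BEC (1.30) lie left of those of the other LEC and BEC gates.

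The other genes of both families were taken as a list of 20, of which 18 were in the files. In LEC 9 of 16 measured ones (at least 20 UMIs) were at least 1.5-fold higher in SAH, in BEC 10 of 16 and in fibroblastic stroma 5 of 12. Of all measured genes 9.14%, 12.4% and 8.49% were. Of the relatives 0, 0 and 1 were at least 1.5-fold lower. The median log2 ratio was 0.68 in LEC, 0.67 in BEC and 0.56 in fibroblastic stroma. Irgm2, the third IRG regulator, stood at 93.7 CPM in SAH and 54.6 CPM in sham LEC (1.72-fold, 1.59 to 1.85), and its ratio was 1.44 in BEC and 1.30 in stroma. Reads from its shared stretch with Igtp, whose gene it overlaps on the same strand, cannot be told apart: 11.8% of 50-base stretches of Igtp also occur in Irgm2.

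Ifi47 (Irgd) had the ratio nearest 1 of the measured relatives in LEC and BEC, though not in stroma. It had 145.9 CPM in SAH and 132.5 CPM in sham LEC (1.101-fold, 1.04 to 1.16), 159.7 and 152.4 CPM in BEC (1.05-fold, 1.01 to 1.09), and 124.2 and 105.0 CPM in fibroblastic stroma (1.18-fold, 1.08 to 1.29). Irgq, a relative without GTPase function, had ratios of 1.20, 1.16 and 1.01 in LEC, BEC and stroma. Tgtp1 and Tgtp2 (Irgb6), effector genes that share 81.2% and 86.6% of their 50-base stretches with other genes, had ratios of 1.64 and 1.95 in LEC, 1.83 and 1.94 in BEC, and 3.48 and 2.44 in stroma.

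Of the other GBPs, Gbp5, which promotes inflammasome assembly, stood at 46.7 CPM in SAH and 34.7 CPM in sham LEC (1.35-fold, 1.22 to 1.49), and its ratio was 1.62 in BEC and 1.46 in stroma. Gbp9 had ratios of 1.58, 1.49 and 1.88 in LEC, BEC and stroma, and Gbp8 1.41, 1.82 and 1.49. Both overlap Gbp4 on the same strand. Gbp8 differed from the 8 genes in its order, with 13.3 CPM in SAH and 8.95 CPM in sham stroma against 4.49 and 3.18 CPM in LEC and 2.54 and 1.40 CPM in BEC. Gbp10 had 23 UMIs in SAH and 3 in sham LEC (ratio interval 1.89 to 32.6), and 36 and 9 in BEC.

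The predicted IRG genes Gm4951 and F830016B08Rik had ratios from 1.56 to 1.92 over the 3 classes. 9930111J21Rik2 stood at 172.5 CPM in SAH and 114.9 CPM in sham BEC (1.501-fold, 1.44 to 1.56) and had ratios of 1.35 in LEC and 1.14 in stroma. Its relative 9930111J21Rik1 had ratios of 1.11 in LEC and 1.09 in BEC, and Gm5431 2.45 and 3.67 from at most 93 UMIs. The windows of 9930111J21Rik1, 9930111J21Rik2, Gm5431, Ifi47 and Irgq held neither GAS nor the ISRE core, so windows without either stood beside ratios in LEC from 1.101 to 2.45. The very large GTPase Gvin1 had ratios of 1.49 in LEC and 1.35 in BEC, and its near copy Gm4070 1.72, 1.98 and, from 12 SAH and 14 sham UMIs in stroma, 0.632 (0.267 to 1.47). Of their stretches 99.2% and 97.8% occur in other genes, so their counts are uncertain.

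**Figure D4:**
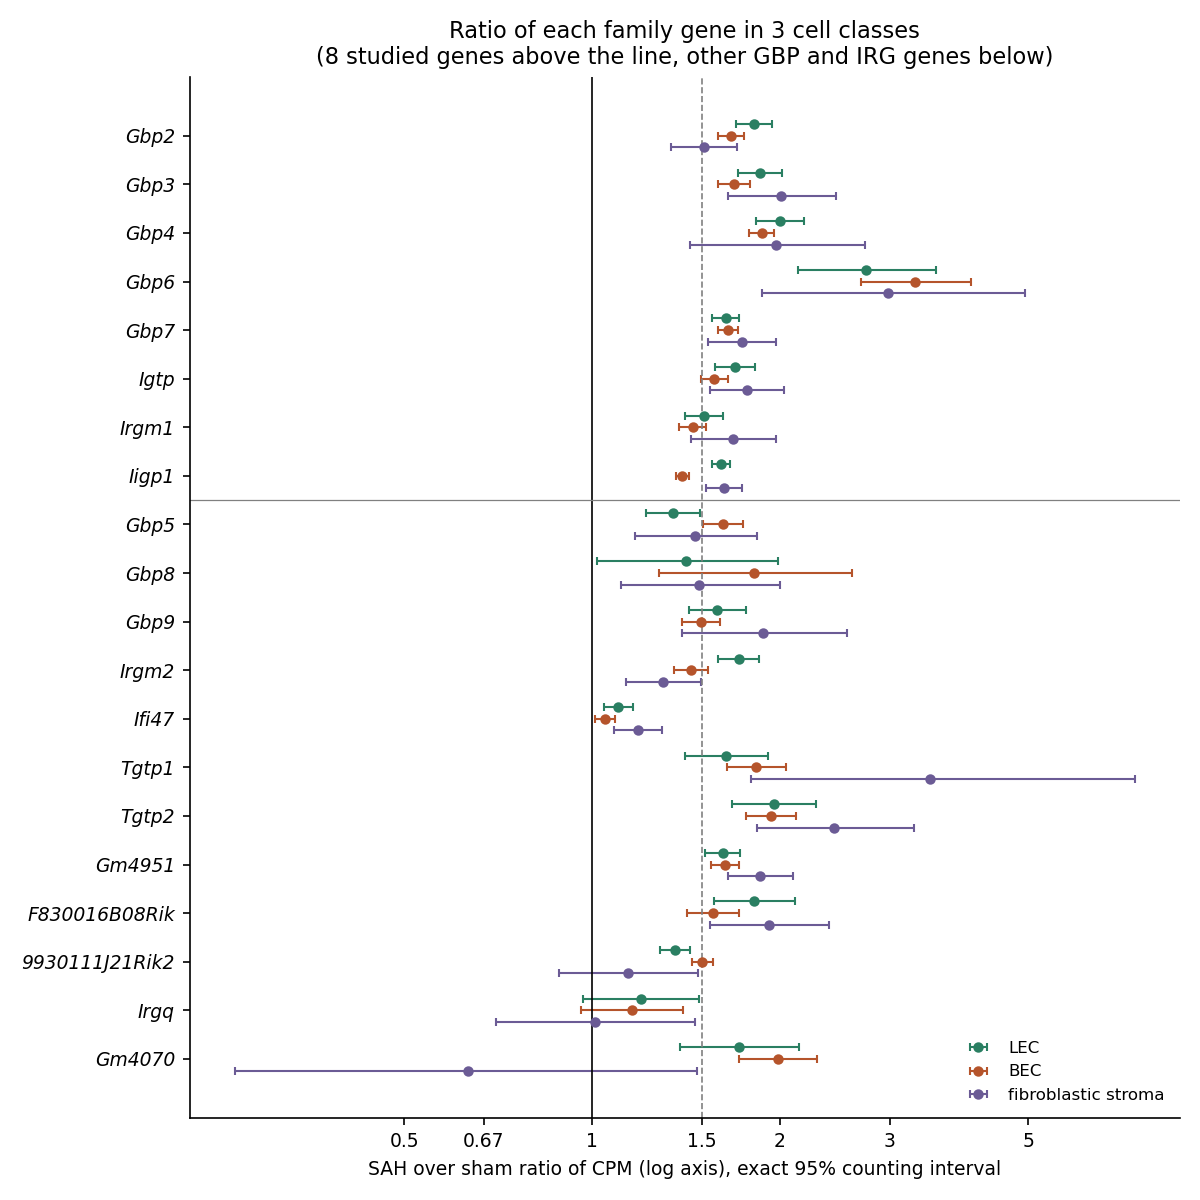
SAH over sham ratio of CPM on a log axis, with exact 95% counting intervals, for the 8 genes (above the grey line) and the other family genes measured in all 3 classes (below), with LEC green, BEC orange and fibroblastic stroma purple; the solid line marks no difference and the dashed line 1.5-fold. All points of the 8 genes lie right of 1, from 1.40 (Iigp1 in BEC) to 3.29 (Gbp6 in BEC), and Ifi47 and Irgq lie near 1.

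Of 16 genes for interferon receptors and signalling, 0 in LEC, 0 in BEC and 2 in fibroblastic stroma were at least 1.5-fold higher in SAH, and none lower. The median log2 ratios were -0.09, -0.02 and -0.03. Of all measured genes 9.14%, 12.4% and 8.49% were at least 1.5-fold higher, so the stromal count is near the share over all genes. The 2 in stroma, named after their values were seen, were Stat2, at 41.2 CPM in SAH and 19.3 CPM in sham (2.13-fold, 1.77 to 2.58), and Irf9, at 41.5 and 26.3 CPM (1.58-fold, 1.33 to 1.87), which act together downstream of type I interferons. The receptor chain Ifngr1 had ratios of 0.822, 0.843 and 0.891 in LEC, BEC and stroma, and Ifngr2 1.09, 1.103 and 1.14. Jak1 had 1.31, 1.05 and 1.03, and Jak2 1.07, 0.992 and 1.01. Irf1 had 1.22, 1.21 and 1.03, and Irf8 0.939, 0.836 and 0.877. The largest of these receptor and kinase ratios, that of Jak1 in LEC, was below the smallest of the 8 GTPase genes, that of Iigp1 in BEC at 1.40.

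Among 13 measured interferon gamma targets other than GTPases in LEC, 3 were at least 1.5-fold higher, with a median log2 ratio of 0.45. Counts in BEC and stroma were 4 of 13 and 4 of 12, with 1 lower in stroma. Over all measured genes the shares at least 1.5-fold higher were 9.14% in LEC, 12.4% in BEC and 8.49% in stroma. Psmb8, an immunoproteasome subunit, stood at 583 CPM in SAH and 308 CPM in sham LEC (1.89-fold, 1.83 to 1.95). Ciita, the class II transactivator, had 17 and 5 UMIs there, with a ratio interval of 0.984 to 9.63. Cxcl10 had the lowest ratio, at 301 CPM in SAH and 292.5 CPM in sham LEC (1.03-fold, 0.994 to 1.07). The order differed in the other classes, as genes named after their values were seen show. Cxcl9, a chemokine for activated T cells, stood at 334 CPM in SAH and 113.4 CPM in sham BEC (2.94-fold, 2.84 to 3.05) and at 387 and 129.8 CPM in stroma (2.98-fold, 2.79 to 3.20), against a ratio of 1.39 in LEC. The lower gene in stroma was Cd74, the class II invariant chain, at 133.9 CPM in SAH and 203 CPM in sham (0.659-fold, 0.613 to 0.708), and H2-Ab1, a class II chain, had a ratio of 0.744 there.

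The antiviral genes of type I interferon had larger median ratios than the GTPases, with log2 medians of 1.06 in LEC, 1.12 in BEC and 1.42 in stroma. The ranges overlapped, in LEC from 1.52 to 5.69 for the antiviral genes and from 1.51 to 2.74 for the GTPases. At least 1.5-fold higher were 14 of 14 in LEC, 13 of 14 in BEC and 13 of 14 in stroma, beside 9.14%, 12.4% and 8.49% of all measured genes. Irf7 stood at 383 CPM in SAH and 67.3 CPM in sham LEC (5.69-fold, 5.36 to 6.04), Oas1a at 26.4 and 5.49 CPM (4.81-fold, 3.89 to 5.99), and Bst2, the lowest, at 1462 and 962 CPM (1.52-fold, 1.49 to 1.55). In each class Gbp6 alone of the 8 GTPases exceeded the median of this list. Since most antiviral genes answer to both kinds of interferon, the lists overlap in what they read.

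Of the partners through which these GTPases act, the autophagy genes were mostly near even and several inflammasome genes were not. Of 13 genes for ATG8 conjugation and autophagy, 0 in LEC, 1 in BEC and 1 in stroma were at least 1.5-fold higher, with median log2 ratios of -0.04, -0.07 and 0.02. The 1 in BEC and in stroma was Gabarapl1, an ATG8 protein, with ratios of 1.56 and 1.61. In LEC the ratios ran from 0.925 for Atg16l1, part of the conjugating enzyme, to 1.37 for Gabarapl1 and 1.42 for Sqstm1, an autophagy receptor. Of the inflammasome and pyroptosis genes 1 of 8 in LEC, 5 of 8 in BEC and 1 of 6 in stroma were at least 1.5-fold higher, with 0, 0 and 1 lower and median log2 ratios of 0.28, 0.63 and 0.40. Of all measured genes 9.14% in LEC, 12.4% in BEC and 8.49% in stroma were at least 1.5-fold higher. The 5 in BEC were Il1b, Nlrp3, Il18, Gsdmd and Casp4, the 1 in stroma was Il1b, and the lower one there was Il18. In BEC Nlrp3 had 25 UMIs in SAH and 6 in sham, and Il18 had 30 and 16, with a ratio interval of 0.976 to 3.63. Il1b, a cytokine made mainly by myeloid cells, had 367 UMIs in SAH and 57 in sham BEC and 151 and 1 in stroma, where the myeloid markers summed below were also higher in SAH, and their part was not tested. Gsdmd, the pore-forming protein, stood at 39.2 CPM in SAH and 23.4 CPM in sham LEC (1.68-fold, 1.495 to 1.89), Casp4, the sensor of bacterial lipopolysaccharide, at 112.6 and 82.0 CPM (1.37-fold, 1.29 to 1.46), and Pycard, the adaptor, at 40.4 and 44.6 CPM (0.905-fold, 0.823 to 0.996).

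Among the ligands, Ifng had 21 UMIs in 10 kept SAH cells, with at most 5 in a cell, and 1 UMI in 1 kept sham cell. All 10 SAH cells also had a UMI of Nkg7, a gene of NK and cytotoxic T cells, and 3 had Cd3e. Kept cells with Nkg7 numbered 40 in SAH and 49 in sham, and those with Cd3e 40 and 116. Ifnb1 and the other type I and III interferon genes listed had 0 UMIs in all barcodes of both libraries. For each such gene this allows a share with a UMI of up to 0.0262% of kept SAH cells and 0.0269% of kept sham cells. That limit is the approximation of 3 cells over all kept cells, not an exact interval, and covers only cells that passed the CD45 depletion.

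Leukocyte RNA in the classes moved in several directions. The summed level of 7 T- and NK-cell markers was 2.46 CPM in SAH and 4.20 CPM in sham LEC, 7.64 and 12.2 CPM in BEC, and 0.650 and 15.6 CPM in stroma, where Klrb1c and Ncr1 were at 0 in both libraries. Of these 7 markers 2 were higher in SAH in LEC, 3 in BEC and 1 in stroma. The 8 myeloid markers summed to 51.7 CPM in SAH and 55.5 CPM in sham LEC, 91.3 and 66.5 CPM in BEC, and 169.6 and 114.7 CPM in stroma, with 5, 7 and 8 of them higher in SAH. The 4 B-cell markers in the files summed to 12.0 and 13.0 CPM in LEC, 23.0 and 20.0 CPM in BEC, and 9.01 and 6.80 CPM in stroma. Without the BEC and stromal cells that carried Cd79a, Cd3e or Lyz2, all 8 GTPase genes remained higher in SAH, as given for the exclusive classes, and the part of the remaining leukocyte RNA was not tested. The 5 mural markers summed to 200.2 and 259.8 CPM in LEC, 269 and 358.5 CPM in BEC, and 834 and 1272 CPM in stroma. Among cells outside the classes, those with a Cd3e UMI had 311.5 CPM of the 8 GTPase genes in 22 SAH cells and 276 CPM in 55 sham cells. Those with a Lyz2 UMI had 618 CPM in 11 SAH cells and 217 CPM in 14 sham cells, beside 609 and 363 CPM in stroma.

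The genes most like the 8 in pattern were ranked among 7752 other genes by Pearson's r of log2(CPM + 1) with the mean standardised profile of the 8, over the 6 values that 3 classes in 2 libraries give. Psmb8 came first (r = 0.998), followed by Ndufa6 (0.997), Ifih1 (0.996), Camta2 (0.996) and Isg15 (0.996). Because r ignores the size of a difference, a gene that hardly varied could rank high: Ndufa6, a subunit of respiratory complex I, ranged only from 220 to 263 CPM, while Isg15, a ubiquitin-like antiviral protein, stood at 435 CPM in SAH and 209 CPM in sham LEC. Ifih1, a sensor of viral RNA, stood at 64.8 CPM in SAH and 42.7 CPM in sham LEC. The r of the 8 genes with their own mean ran from 0.825 for Gbp6 to 0.991 for Gbp3. The 6 values share 2 libraries and are not independent, so r is a description only.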

How the data were processed

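Gene expression was measured in 2 single-cell libraries, 1 of SAH and 1 of sham mandibular lymph nodes. The deposited matrices hold unnormalised UMI counts, whole numbers that sum to 78497486 for SAH and 72860197 for sham. Cell Ranger 5.0, STAR, Seurat 3.0.2 and mm10 are named in the submitters' processing notes. Per the labels' protocols each cDNA was tagged at its 5′ end. Whether introns were counted, and the annotation release, are not given in the sources used here. The lowest barcode totals of 501 UMIs in SAH and 502 UMIs in sham show that smaller barcodes had been removed.

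The 8 genes, the gene lists and the gates were chosen with earlier results of these data known. Counts of entries sharing a symbol were summed. Barcodes with at least 500 genes and at most 10% mitochondrial UMIs were kept, and doublets were not removed in the main values. Counts were summed per class and library and divided by the class total (CPM). Ratios of CPM, SAH over sham, carry a 95% interval from the exact binomial distribution given the sum of both counts. The coverage of these ratio intervals was tested only on simulated Poisson counts, which follow the assumption of the interval itself. Those counts hold no clustering of UMIs in single cells, so coverage under such clustering was not tested. A level has an exact Poisson interval and a share of cells an exact Clopper-Pearson interval. Genes with at least 20 UMIs over both libraries in a class count as measured, and 1.5-fold was the size named. Shares used cells thinned at random to 2000 UMIs, which left out 53 SAH and 40 sham LEC, 626 and 552 BEC, and 84 and 107 stromal cells. All 8 genes and all measured relatives were named, as were 6 signalling genes (1 more is not reported here), and from other lists the 2 highest and the lowest ratio in LEC. Scrublet ran through scanpy 1.11.5, TMM factors came from edgeR 4.0.16, and Python 3.11.15 with numpy 2.4.6, scipy 1.17.1 and matplotlib 3.10.9 was used. Coordinates and transcript overlaps come from GENCODE on GRCm38.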

Additional observations from a re-analysis of the deposited data

How the results depend on the processing

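Each ratio was recomputed under 10 alternatives: predicted doublets removed, a stricter and a looser cell filter, stricter marker UMIs, exclusive classes, thinned cells, a total without mitochondrial and ribosomal protein genes, TMM factors, equal weight per cell, and the 10 richest cells left out. Of 240 values 211 lay inside the main counting interval and 29 outside, and none changed sign. The number of genes at least 1.5-fold higher stayed between 7 and 8 in LEC, 5 and 6 in BEC, and 6 and 8 in fibroblastic stroma. The line was crossed 9 times, by Irgm1 in LEC (log2 ratios of 0.54 when thinned and 0.58 with equal weight), by Igtp in BEC (0.58 under the stricter filter, 0.57 when thinned, 0.51 with equal weight), and in stroma by Gbp2 (0.57 under either filter, 0.55 without the 10 richest cells) and Iigp1 (0.57 under the stricter filter). With no minimum of UMIs the background shares at least 1.5-fold higher were 16.9% in LEC, 19.9% in BEC and 15.7% in stroma. Gbp6 moved most in stroma, from 1.02 to 2.20 on the log2 scale, which its 93 SAH and 23 sham UMIs limit. No paired analysis was possible because each group is 1 library. A difference between 2 pooled libraries cannot be told apart from one between preparations.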

Other observations

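Outside the 3 classes, cells with a Cd79a UMI, a B-cell gene, had 276 CPM of the 8 GTPase genes together in 60 SAH cells and 231 CPM in 138 sham cells. In cells with a UMI of Lyz2, a myeloid gene, Iigp1, the most abundant of the 8 in the stromal classes, gave 18 UMIs in 11 SAH cells and 3 in 14 sham cells, while Gbp6 gave 0 in both.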
